A study of Mus musculus with 4 samples.

Results

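Cxcl1, Cxcl2, Cxcl3 and Cxcl5, which encode CXC chemokines that attract neutrophils, and Cxcr2, which encodes their receptor, were followed through single-cell RNA-seq of CT26 tumours and their draining lymph nodes (TDLN). They were found by symbol, 5 of the 31253 genes of the count matrices, with 1 row each. CT26 is a mouse colon carcinoma line. The series title describes NanoCa as a calcium crystal carried by lipid nanoparticles for immunotherapy. The 4 groups were tumour with NanoCa, tumour with mock, TDLN with NanoCa and TDLN with mock, from female mice aged 4 to 8 weeks. Each group was 1 library, and all 4 carried 1 batch date. The tag of both mock libraries reads untreated while NanoCa stands in the protocol field on treatment, so every NanoCa to mock ratio below rests on the names and tags. The sources used here give no host strain, dose, number of mice per library or exact gate for the sort, which used a CD45 antibody.

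In mice, Cxcl1, Cxcl2, Cxcl3 and Cxcl5 bind Cxcr2, a G-protein-coupled receptor of neutrophils, and draw these cells out of blood toward inflamed tissue. Their genes are typical targets of NF-kB and are switched on by interleukin-1, tumour necrosis factor and Toll-like receptor signals. In tumours, both malignant cells and myeloid cells are known to make them. Cxcl5 is best known from epithelial and stromal cells.

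The 4 ligand genes stand near each other on mouse chromosome 5, where RefSeq lists, in order, Cxcl5, Ppbp, Pf4, Cxcl3, Cxcl15, Cxcl1 and Cxcl2. RefSeq promoters (build GRCm38.p6, 250 bases before to 50 after each gene's start) were matched for 4 of the 5 genes, and Cxcl5 had no entry. The 3 ligand promoters are printed because Cxcl1, Cxcl2 and Cxcl3 were lower together in the comparison described later. Capitals mark GGGAATTTCCC, the longest run of bases that all 3 share before the gene start, which holds a form of the NF-kB recognition sequence. The plus strand is shown. They lie at chr5:90890995-90891294 (Cxcl1), chr5:90903649-90903948 (Cxcl2) and chr5:90785851-90786150 (Cxcl3).
Cxcl1: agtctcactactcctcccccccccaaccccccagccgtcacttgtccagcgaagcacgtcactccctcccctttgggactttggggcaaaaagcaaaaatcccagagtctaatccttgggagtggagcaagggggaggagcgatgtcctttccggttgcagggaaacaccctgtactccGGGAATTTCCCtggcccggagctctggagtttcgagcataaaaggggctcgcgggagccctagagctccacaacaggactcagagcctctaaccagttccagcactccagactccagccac
Cxcl2: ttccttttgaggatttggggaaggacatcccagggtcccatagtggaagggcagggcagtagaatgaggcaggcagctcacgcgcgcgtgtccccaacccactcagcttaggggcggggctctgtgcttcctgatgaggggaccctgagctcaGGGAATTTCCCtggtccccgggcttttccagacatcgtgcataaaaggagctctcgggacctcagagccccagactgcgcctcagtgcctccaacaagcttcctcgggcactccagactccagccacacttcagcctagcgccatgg
Cxcl3: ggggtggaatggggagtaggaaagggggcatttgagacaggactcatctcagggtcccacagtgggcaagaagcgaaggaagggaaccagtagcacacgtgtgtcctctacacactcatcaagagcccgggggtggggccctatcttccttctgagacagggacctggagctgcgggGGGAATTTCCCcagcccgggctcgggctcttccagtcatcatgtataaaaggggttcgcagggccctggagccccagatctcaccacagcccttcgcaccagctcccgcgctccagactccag
This run of 11 bases began 71, 97 and 73 bases before the gene start of Cxcl1, Cxcl2 and Cxcl3. Both strands were searched for it (its reverse complement is GGGAAATTCCC), and 14 of 32851 promoters of the same length held it (0.0426%). Since it was taken from these promoters, its presence in them is a description. No match was found in the 300 bases of the Cxcr2 promoter on chromosome 1.

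The tumour libraries held 167924801 UMIs (unique molecular identifiers, each a counted RNA molecule) with NanoCa and 148121144 with mock, and the TDLN libraries 74909974 and 106579362. Between any pair of libraries, 121 to 183 barcodes were shared, at most 1.65% of a library. After filtering and doublet removal, 10202 cells with NanoCa and 8583 with mock were kept in the tumour, and 10038 and 9414 in TDLN. They were clustered without the 5 genes, and each class name stands for cells that resemble that type. The labels call the cells immune cells, yet carcinoma-like cells made up 62.3% and 61.9% of the tumour libraries. They made up 3.28% (NanoCa) and 10.6% (mock) of the TDLN libraries. Carcinoma-like clusters of the tumour held Ptprc, which encodes CD45, at 0.867 to 23.7 CPM (counts per 1e6 UMIs of the summed cells), against a median of 464 CPM in named immune clusters. Their summed level of 13 carcinoma markers was 465 to 562 CPM over the 4 libraries, and 2 of the 10 tumour clusters and 1 of the 2 TDLN clusters scored highest for the fibroblast list. Over the tumour clusters, Rhox5 ran from 133 to 417 CPM, Krt18 from 12.7 to 98.8 and Krt8 from 1.41 to 44.2. All intervals are 95% and cover counting error alone. With 1 library per group no test is possible, and "called" means a difference of at least 1.5-fold in CPM for genes whose UMIs over the pair of libraries came to 50 or more.

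Cxcl1 RNA came mainly from carcinoma-like cells. Cxcl2 RNA came mainly from monocyte-macrophage-like cells, and tumour Cxcl3 RNA mainly from these and neutrophil-like cells. Carcinoma-like cells held 95.5% and 93.4% of the Cxcl1 UMIs in kept cells of the tumour (199450 with NanoCa, 202646 with mock) and 89.3% and 90.1% of those in TDLN. Their share of all UMIs was 89.2% and 88.9% in the tumour, but 28.9% and 53.8% in TDLN. Cxcl2 was split otherwise. Monocyte-macrophage-like cells, 4.17% and 4.25% of all tumour UMIs, held 74.6% (NanoCa) and 84.2% (mock) of Cxcl2 in the tumour, and 70.0% and 82.9% in TDLN. In the tumour that was 20571 and 49022 Cxcl2 UMIs. Carcinoma-like cells held 2839 and 2920 there, and neutrophil-like cells 1552 and 3267. Of Cxcl3, the same class held 66.5% and 78.8% in the tumour. Neutrophil-like cells, 0.843% and 1.42% of tumour cells, added 22.2% (NanoCa) and 13.4% (mock) of Cxcl3. In TDLN, monocyte-macrophage-like cells held 43 (NanoCa) and 174 (mock) Cxcl3 UMIs, and carcinoma-like cells 9 and 93. Fibroblast-like cells held most Cxcl5 in 3 libraries, with 67.5% (tumour NanoCa), 90.2% (TDLN NanoCa) and 87.5% (TDLN mock), and 45.7% in tumour mock. In the tumour, Cxcr2 RNA came mainly from neutrophil-like cells, with 81.4% and 87.1% of its 59 and 70 tumour UMIs in neutrophil-like cells.

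**Figure D1:**
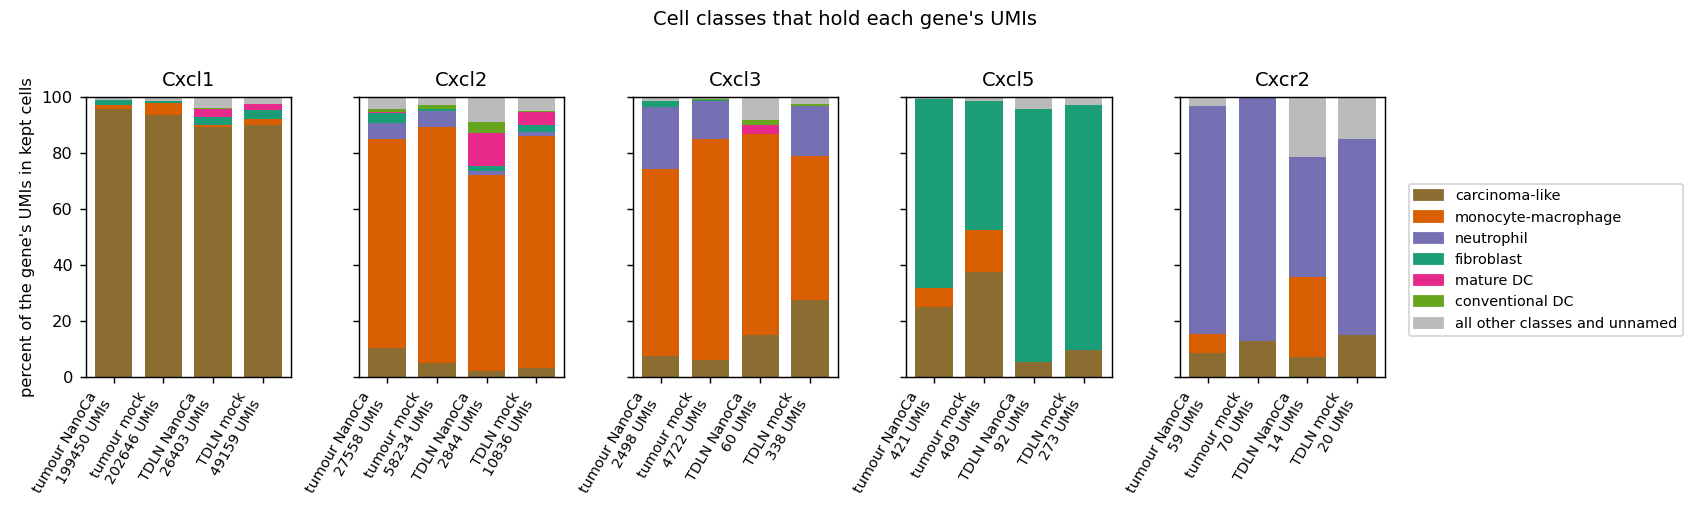
Share of each gene's UMIs in kept cells by cell class (y axis, percent), with 1 stacked bar per library and the gene's UMI total under it. Carcinoma-like cells fill 95.5% and 93.4% of the tumour Cxcl1 bars, and monocyte-macrophage-like cells 74.6% and 84.2% of the tumour Cxcl2 bars.

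In carcinoma-like cells the Cxcl1 level was 1448 CPM (1441 to 1454) in tumour NanoCa, 1609 (1602 to 1616) in tumour mock, 1204 (1189 to 1219) in TDLN NanoCa and 842 (834 to 849.9) in TDLN mock. A Cxcl1 UMI was present in 89.0%, 93.1%, 90.3% and 85.2% of these cells in the same order, or 54.5%, 58.9%, 49.2% and 40.8% after thinning each cell to 1000 UMIs. Carcinoma-like cells were large, with medians of 20767 (NanoCa) and 22316 (mock) UMIs in the tumour and 59505 and 54847 in TDLN. They thus held 29.96, 35.6, 71.7 and 44.5 Cxcl1 UMIs per cell. The gene was unevenly spread among them, since 15.2% and 15.1% of tumour carcinoma-like cells held 50% of its UMIs. Among 9 carcinoma-like clusters with at least 50 cells per library, Cxcl1 ran from 285 and 310.5 CPM in cluster 5 (leading genes Klk10 and Msln) to 2604 and 3184 CPM in cluster 3 (Agt, Ptgds, Omd and Ogn), NanoCa first. Cluster 3 was also 1 of those scoring highest for the fibroblast list.

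Monocyte-macrophage-like cells had a Cxcl1 level of 534 CPM (516 to 553) in tumour NanoCa and 1524 (1492 to 1557) in tumour mock. Carcinoma-like cells were therefore 2.71-fold higher than these myeloid cells with NanoCa and 1.06-fold higher with mock. In TDLN the myeloid level was 97.1 CPM (80.5 to 116) with NanoCa and 377 (353 to 402) with mock, and carcinoma-like cells were 12.4-fold and 2.23-fold higher. Fibroblast-like cells held the highest tumour levels, 2050 CPM (1978 to 2124, 134 cells) and 2444 (2319 to 2575, 53 cells). In TDLN, mature dendritic cells, the migratory antigen-presenting state, held 847 CPM (790 to 906.5, 113 cells) and 1000 (944 to 1060, 127 cells). That put them below carcinoma-like cells with NanoCa and above them with mock. Tumour lymphocytes read 168 to 279 CPM. RNA released from other cells would give T cells 379 (NanoCa) and 349.7 (mock) CPM, as estimated from the carcinoma genes Krt8, Krt18 and Rhox5, and their measured 192 and 270 CPM lay below that. The estimate was thus too high for Cxcl1 in these cells. Neutrophil-like cells, at 566 (439 to 719) and 694 (584 to 817) CPM, were also below their own free RNA estimate of 841 and 895 CPM, so no Cxcl1 of their own can be read from them.

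For Cxcl2 the order was reversed. Tumour neutrophil-like cells were highest at 13111 CPM with NanoCa (86 cells) and 15958 with mock (122 cells). Monocyte-macrophage-like cells followed at 3345 (3299 to 3391) and 8708 (8631 to 8785) CPM. Carcinoma-like cells, at 21.6 and 24.8 CPM, were 155-fold and 351-fold lower than the myeloid class. T cells, which have low UMI counts, read 70.8 and 98.8 CPM, near their free RNA estimates of 54.7 and 103 CPM. Per cell, carcinoma-like cells held 0.447 and 0.549 Cxcl2 UMIs and T cells 0.17 and 0.298. A Cxcl2 UMI was present in 14.8% and 27.9% of carcinoma-like cells and in 14.5% and 24.8% of T cells, at medians of 1969 and 2394 UMIs per T cell. Single carcinoma-like cells reached 52 and 148 Cxcl2 UMIs, and the part of free RNA in the class's Cxcl2 was not tested. Carcinoma-like cells also held the 13 monocyte-macrophage markers at a summed 128 (NanoCa) and 135 (mock) CPM, against 29527 and 28160 CPM in the myeloid class. In TDLN the myeloid level of Cxcl2 was 1597 CPM (1528 to 1669) and 3718 (3641 to 3795), mature dendritic cells had 340 and 421, and carcinoma-like cells had 2.96 and 6.62, beside the 5.62 and 14.3 CPM of T cells.

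Cxcl3 RNA sat in few cells. Neutrophil-like cells of the tumour had 4680 CPM (4298 to 5087) with NanoCa and 3082 (2846 to 3332) with mock. The tumour myeloid class had 270 (257 to 283) and 661 (640.3 to 683) CPM, and only 12.5% and 23.3% of its cells held a Cxcl3 UMI. In the myeloid class, 50% of the Cxcl3 UMIs came from 11 of 990 cells with NanoCa and from 12 of 712 cells with mock. Fibroblast-like cells read 35.5 and 48.2 CPM, and carcinoma-like cells 1.43 and 2.47, beside 2.32 and 2.61 CPM in T cells. Outside the tumour the myeloid level was 34.5 CPM (25.0 to 46.5) with NanoCa and 72.0 (61.7 to 83.6) with mock in TDLN.

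Cxcl5 was scarce, with 480 and 465 UMIs in the whole tumour libraries and 92 and 274 in the TDLN libraries. In fibroblast-like cells it stood at 190 CPM (169 to 213) in tumour NanoCa and 322 (278 to 372) in tumour mock. Single cells weighed heavily, since 1 cell held 19.4% (NanoCa) and 40.1% (mock) of the class's Cxcl5 UMIs in the tumour, and 41.0% and 67.8% in TDLN. The TDLN fibroblast-like class, 27 and 47 cells, was too small for a ratio. Carcinoma-like cells had 0.798 and 1.30 CPM in the tumour. Most of that lay in cluster 3 (4.60 and 7.81 CPM) and in cluster 16, led by Btc and Glod5 (3.79 CPM with 297 NanoCa cells and 17.2 CPM with 43 mock cells). The tumour myeloid class had 4.55 and 10.8 CPM, from 28 and 61 UMIs, and the TDLN myeloid class had none.

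**Figure D2:**
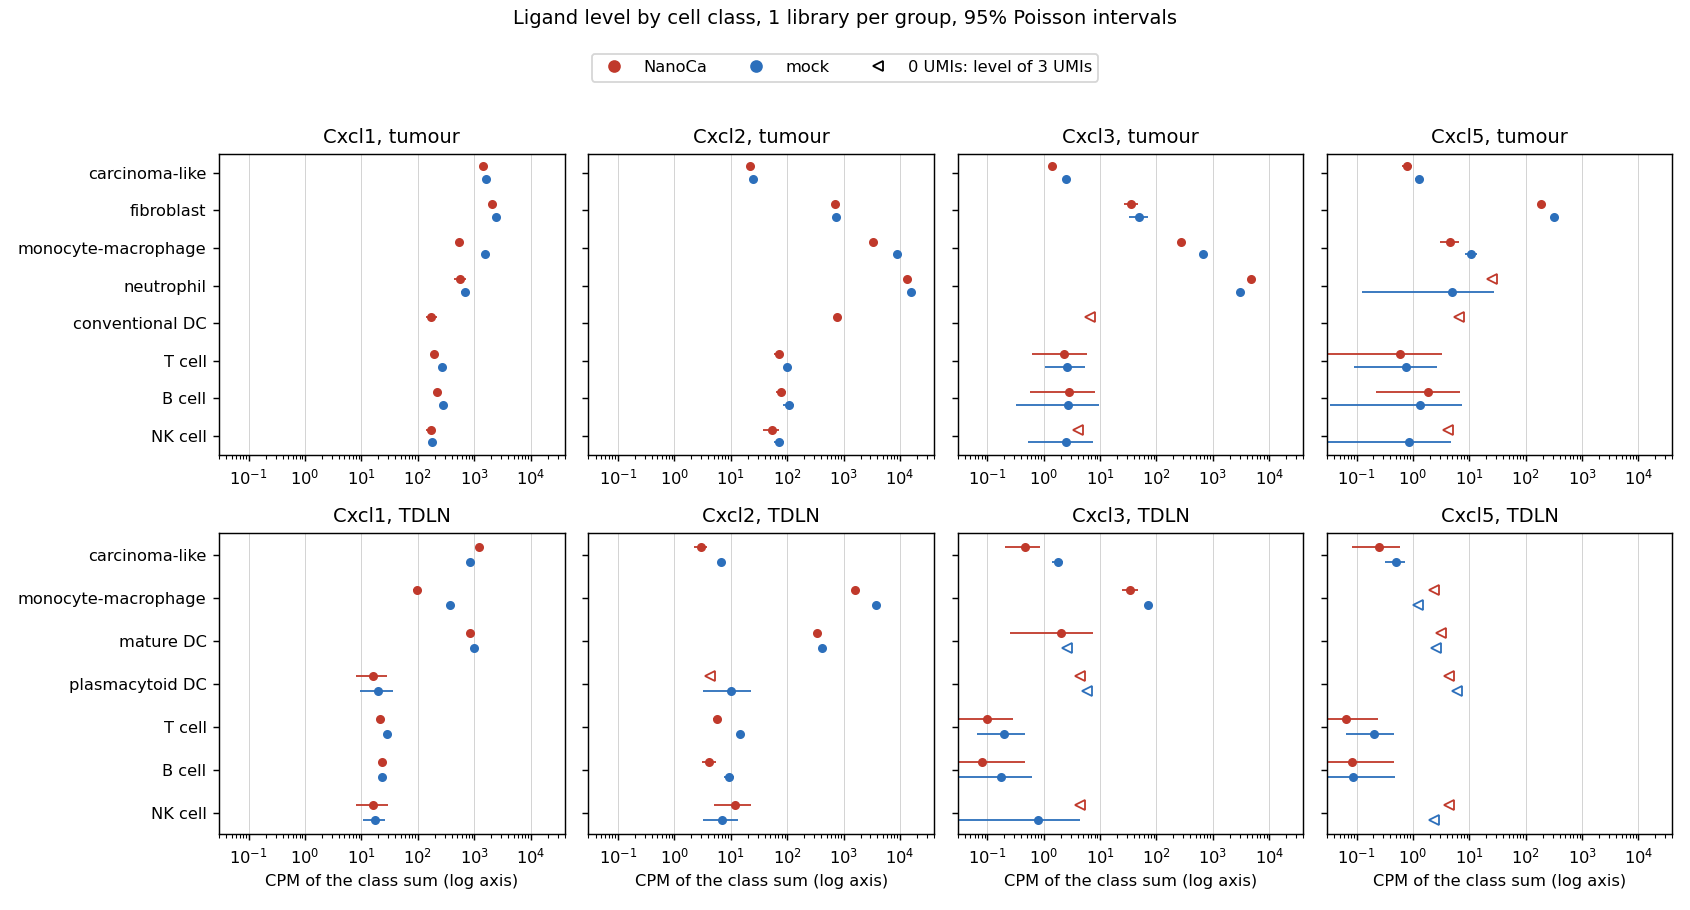
Level of the 4 ligand genes by cell class (x axis, CPM of the class sum, log axis), tumour above and TDLN below, with points for the NanoCa and mock libraries and 95% Poisson intervals. Open triangles stand for 0 UMIs and sit at the level of 3 UMIs. Cxcl1 is high in carcinoma-like and fibroblast-like cells, and Cxcl2 in neutrophil-like cells (13111 and 15958 CPM in the tumour).

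Within the tumour myeloid class the ligands shared cells. After thinning to 1000 UMIs, all 93 mock cells with Cxcl3 also held Cxcl2, which 78.2% of all these cells held, and with NanoCa 96.1% of 76 cells did so against 55.4%. Of the cells with Cxcl1, 91.7% (mock) and 82.8% (NanoCa) held Cxcl2. Across 30 sums of a library and class, Cxcl2 and Cxcl3 had a Pearson correlation of 0.85 on the log2(CPM + 1) scale, and Cxcl1 and Cxcl2 one of 0.56. The sums share libraries and free RNA, so these values describe likeness alone. The 5 genes most like Cxcl1 were Mt1 (0.96), Cd63 (0.95), Ptgs2 (0.93), Anxa3 (0.91) and Csf1 (0.90). Cxcl2 was most like Il1rn (0.94), Igsf6, Il1b, Nlrp3 and Lst1 (0.89), of which Il1b encodes interleukin-1 beta and Il1rn the antagonist of its receptor. Cxcl3 was most like Slc40a1, Hnmt, Tgm1, Gpr84 and Mmp8 (0.96 to 0.93). Genes among those most like Cxcl5 were Meg3, Ptx3, Lbp and Pde1a (0.94 to 0.92). The genes most like Cxcr2 were Il1f9, Stfa2l1, Gm39459, Retnlg and Cstdc4 (0.98 to 0.96), of which Retnlg marks neutrophils.

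Tumour levels were set beside TDLN levels for the same class and treatment. In monocyte-macrophage-like cells of the mock libraries, Cxcl1 was higher in the tumour by a log2 ratio of 2.02 (1.92 to 2.12), Cxcl2 by 1.23 (1.20 to 1.26) and Cxcl3 by 3.20 (2.98 to 3.43). All measured genes were thus called higher, where 6.46% of all genes were. They include Cxcl5, which had 61 tumour UMIs and 0 in TDLN and therefore no ratio. With NanoCa the Cxcl1, Cxcl2 and Cxcl3 ratios were 2.46 (2.20 to 2.73), 1.07 (1.00 to 1.13) and 2.97 (2.53 to 3.44). These 3 of 3 measured genes were called higher, where 9.24% of all genes were. In carcinoma-like cells Cxcl1 was higher in the tumour by 0.93 (0.92 to 0.95) with mock, which was called, and by 0.27 (0.25 to 0.29) with NanoCa, which was not. Their Cxcl2 was higher by 1.91 (1.75 to 2.07) with mock and 2.87 (2.49 to 3.27) with NanoCa. In the same order, Cxcl3 was higher by 0.48 (0.14 to 0.84) and 1.64 (0.68 to 2.79), and Cxcl5 by 1.40 (0.79 to 2.05) and 1.64 (0.38 to 3.30). The TDLN NanoCa side of these ratios was 9 Cxcl3 and 5 Cxcl5 UMIs. With either treatment 3 of 4 measured ligands were called higher, where 5.06% (mock) and 5.8% (NanoCa) of all genes in that class were. Lymphocytes moved with the tissue too, since T-cell Cxcl1 was higher in the tumour by 3.27 (mock) and 3.17 (NanoCa), at levels under the free RNA estimate. The tumour and the node also differed in cell makeup and in carcinoma RNA, whose part was not tested.

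The tumour NanoCa library was then set beside the tumour mock library, class by class, and a difference between libraries cannot be told apart from one between treatments. In monocyte-macrophage-like cells (990 and 712) all 4 measured ligands were lower with NanoCa, where 3.19% of all 9706 genes tested were called lower and 8.62% higher. Cxcl1 stood at 534 against 1524 CPM, a log2 ratio of -1.51 (-1.57 to -1.45). Cxcl2 stood at 3345 against 8708 CPM (log2 -1.38, -1.40 to -1.36), with a median of 5 against 37.5 UMIs per cell. Cxcl3 stood at 270 against 661 CPM (log2 -1.29, -1.38 to -1.21). Cxcl5 stood at 4.55 against 10.8 CPM (log2 -1.25, -1.95 to -0.58), but 1 mock cell held 41.0% of its UMIs and its direction turned under a pair of alternatives (0.065 and 0.36). The median over all genes was 0.089. Fewer of these cells held the RNA at equal depth, with Cxcl1 in 25.3% (22.6 to 28.2) against 49.2% (45.4 to 52.9) of thinned cells and Cxcl2 in 55.4% (52.2 to 58.6) against 78.2% (74.9 to 81.2).

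**Figure D3:**
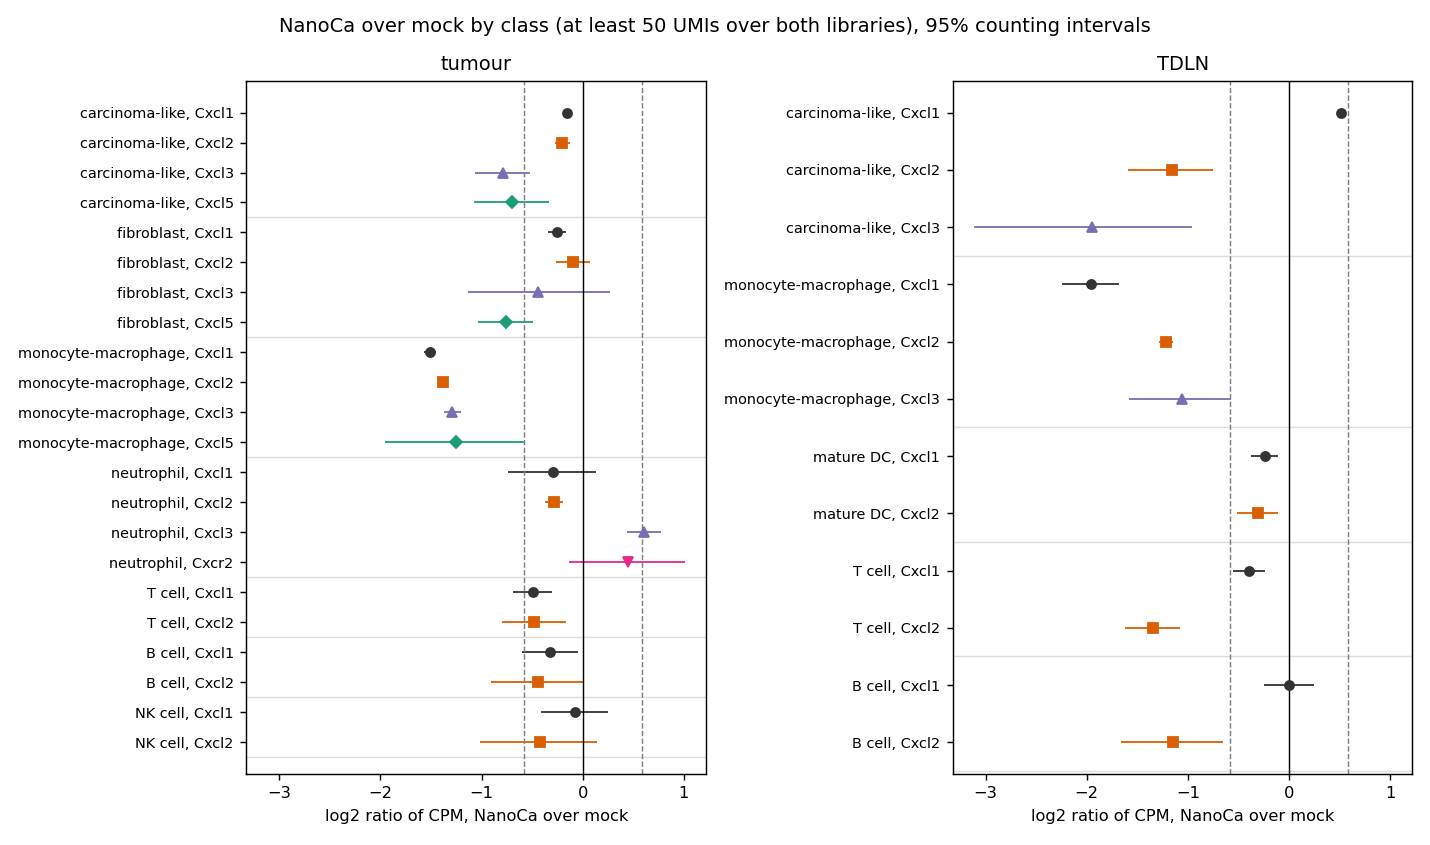
NanoCa over mock log2 ratio of CPM (x axis) by class and gene for genes whose UMIs over the pair of libraries came to 50 or more, tumour left and TDLN right, with 95% counting intervals. The monocyte-macrophage-like ratios run from -1.51 to -1.25 in the tumour and from -1.96 to -1.06 in TDLN, and carcinoma-like Cxcl1 sits at -0.15 and 0.52.

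The lower myeloid levels of Cxcl1 and Cxcl2 appeared in every tumour cluster of the class with at least 50 cells per library. Cxcl1 was called lower in 6 of 6 clusters (log2 -1.73 to -1.22) and Cxcl2 in 6 of 6 (-1.50 to -0.84). Cxcl3 was called lower in 3 of the 4 clusters with enough UMIs. The exception was cluster 28, led by the macrophage genes Mmp12 and Arg1, with 484 against 341 CPM (log2 0.51, 0.23 to 0.79), which was not called. Levels were highest in cluster 11, led by Fcgr1, Ms4a6d and Cxcl3 itself and rich in Ly6c2, a marker of inflammatory monocytes. There Cxcl1 was 888 against 2437 CPM, Cxcl2 6305 against 14579 and Cxcl3 1081 against 2481. Cluster 26, led by complement C1q genes, was lowest, with Cxcl1 at 86.6 against 239 CPM. Neutrophil RNA was low in the whole class and differed between the libraries. The 13 neutrophil markers summed to 420 (NanoCa) and 595 (mock) CPM, against 59558 and 72135 CPM in neutrophil-like cells, with Ly6g at 0 in both libraries and Retnlg at 0 with NanoCa. These markers were not left out of the clustering and named the neutrophil-like class, so the contrast is not independent of it. Without the 2 clusters in which neutrophil markers were raised, the log2 ratios were -1.35 for Cxcl1 and -1.47 for Cxcl2.

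**Figure D4:**
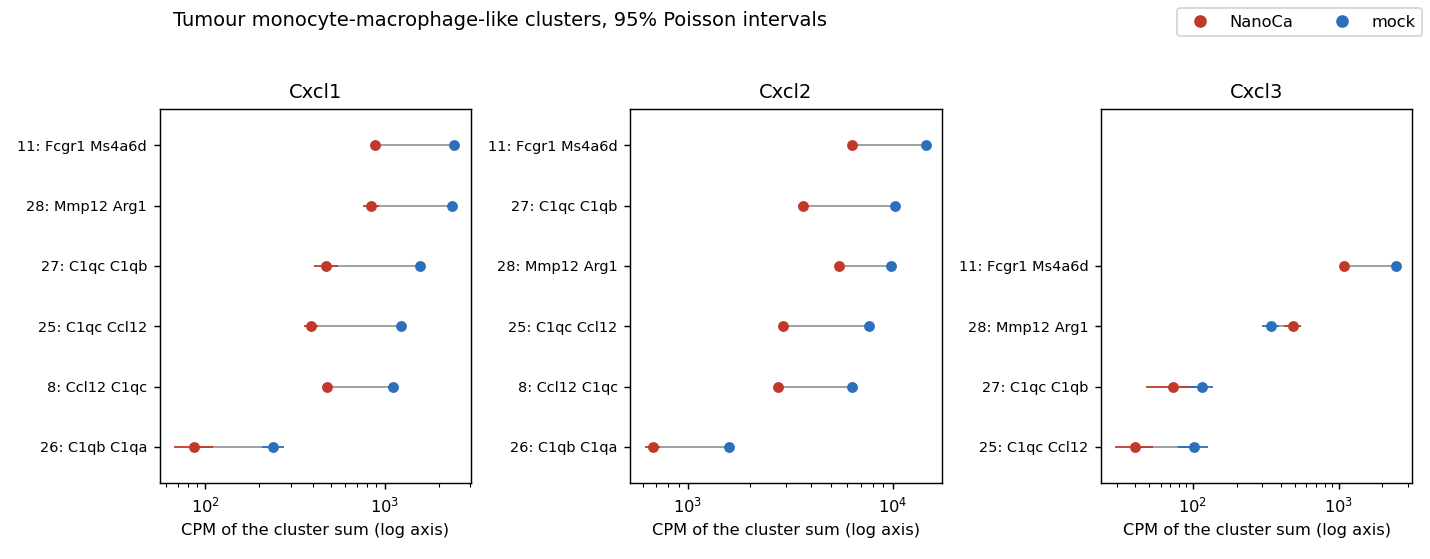
Ligand levels in the 6 tumour monocyte-macrophage-like clusters with at least 50 cells per library (x axis, CPM of the cluster sum, log axis), for the NanoCa and mock libraries with 95% Poisson intervals. The NanoCa point lies left of the mock point for Cxcl1 and Cxcl2 in all 6, and for Cxcl3 it lies right of it in cluster 28 (484 and 341 CPM).

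Ratios were smaller in the other tumour classes, yet all those of Cxcl1 and Cxcl2 were below 0. T cells had log2 ratios of -0.50 (-0.69 to -0.31) for Cxcl1 and -0.48 (-0.80 to -0.16) for Cxcl2, neither called. By cluster, T-cell Cxcl1 was called lower in 2 of 2 (-0.77 and -0.67) and Cxcl2 in the 1 measured (-0.84). The class's Cxcl1 ratio was called with the same cluster makeup (-0.64). B cells (-0.33, -0.45) and NK cells (-0.08, -0.43), in that gene order, were not called. T-cell Cxcl1 lay under its free RNA estimate. In carcinoma-like cells Cxcl1 had a log2 ratio of -0.15 (-0.16 to -0.14), and none of the 9 clusters was called (-0.49 to 0.14). Cxcl2 had one of -0.20 (-0.28 to -0.13), which passed the limit of a call when thinned (-0.73), and it was called lower in 4 of the 9 clusters (-1.99 to 0.33). Cxcl3 (-0.79) and Cxcl5 (-0.70) were called lower, 2 of 4 measured genes where 4.44% of all genes were called lower and 6.3% higher, from 0.787% against 1.69% and 0.771% against 1.24% of cells with a UMI. The Cxcl3 call was lost with the same cluster makeup and the Cxcl5 call without doublet removal. Among the 4 clusters measured for Cxcl3, 3 were called lower and 1 higher (-1.40 to 1.30). Cxcl5 was called lower in the 1 measured (-0.76). Both ratios rest on few cells. In each library, 5 cells held at least as many Cxcl3 UMIs as all its other carcinoma-like cells together. For Cxcl5 the same was true of 9 NanoCa and 7 mock cells. In fibroblast-like cells Cxcl1 (-0.25), Cxcl2 (-0.10) and Cxcl3 (-0.44) were not called, and the Cxcl3 ratio turned to 1.52 with the same cluster makeup. Cxcl5 was called lower there (-0.76, -1.03 to -0.49), 1 of 4 where 7.84% of all genes were, and the call was lost when the richest cell of each library was left out (-0.36). In neutrophil-like cells Cxcl2 was at -0.28 (-0.37 to -0.20) and Cxcl3 was called higher at 0.60 (0.44 to 0.77), 1 of 4 where 8.62% of all 847 genes were. That call was lost under 4 of 13 alternatives (0.45 to 0.75 over all 13).

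In TDLN the same myeloid direction was seen. Monocyte-macrophage-like cells (136 and 265) had Cxcl1 at 97.1 against 377 CPM (log2 -1.96, -2.24 to -1.68), Cxcl2 at 1597 against 3718 (log2 -1.22, -1.29 to -1.15) and Cxcl3 at 34.5 against 72.0 (log2 -1.06, -1.58 to -0.57). All 3 measured genes were called lower, where 9.03% of all genes were called lower and 8.29% higher. Few cells carried these levels, since 50% of the Cxcl2 UMIs lay in 6 of 136 NanoCa cells and 22 of 265 mock cells, and 50% of the Cxcl1 UMIs in 5 and 12 cells. Cluster 21, the 1 cluster with enough cells and UMIs, had Cxcl2 at 225 against 574 CPM, from 27 of the class's 1991 and 59 of its 8978 UMIs, so nearly all of the class's UMIs lay outside it. After thinning, 35.5% (26.6 to 45.1) of NanoCa cells and 55.1% (48.2 to 61.8) of mock cells held Cxcl2. Carcinoma-like cells of the node moved otherwise. Their Cxcl1 was at 1204 against 842 CPM (log2 0.52, 0.49 to 0.54), under the 1.5-fold of a call, while Cxcl2 (-1.16) and Cxcl3 (-1.94) were called lower, where 7.26% of all genes were called lower and 7.93% higher. Per cell they held 0.176 against 0.35 Cxcl2 UMIs, beside 0.0271 and 0.0699 in T cells. The Cxcl2 ratio rests on few cells, since 1 cell held 74.1% of the 58 NanoCa Cxcl2 UMIs. So does the Cxcl3 ratio, from 9 NanoCa and 93 mock UMIs, since 2 of 995 mock cells held 50% of the latter. After thinning, no carcinoma-like cell of either TDLN library held Cxcl3. Ptprc in their main cluster was at 16.9 CPM with NanoCa and 7.07 with mock, and the part of admixed immune RNA in these ratios was not tested. Mature dendritic cells had Cxcl1 at -0.24 and Cxcl2 at -0.31, neither called. In T cells Cxcl2 was called lower (5.62 against 14.3 CPM, where 8.38% of all genes were), and likewise in B cells (4.2 against 9.31 CPM, where 9.48% were). Their free RNA estimates of Cxcl2 moved the same way, at 3.81 against 16.2 CPM in T cells and 3.85 against 12.3 CPM in B cells.

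Genes known to induce these chemokines were counted in the same cells. The counts of every list are read beside the shares over all genes, 3.19% lower and 8.62% higher in tumour myeloid cells, 9.03% and 8.29% in TDLN myeloid cells, 4.44% and 6.3% in tumour carcinoma-like cells, and 7.26% and 7.93% in TDLN carcinoma-like cells. Of the 12 measured genes of the list of inducing cytokines and their receptors, 4 were called lower and 0 higher in tumour myeloid cells, with a median log2 ratio of -0.25. Tnf, which encodes tumour necrosis factor, was at 196 against 763 CPM (-1.96) and Il1a, which encodes interleukin-1 alpha, at 133 against 480 CPM (-1.86). The receptor genes Tnfrsf1a (0.04) and Il17ra (0.22) were not called. Over the measured tumour classes, Il1a was called lower in 3 of 3 and Tnf in 2 of 5. In TDLN myeloid cells 4 of 9 were called lower and 0 higher (median -0.07), with Il1a at -2.59 and Tnf at -1.57. In tumour carcinoma-like cells 3 of 13 were called lower and 1 higher, beside 4.44% and 6.3% over all genes (median 0.03). There Il33, an alarmin, was scarce at 4.46 against 1.41 CPM (1.66), and Il1a (-1.53) and Tnf (-1.15) were below 2 CPM in both libraries. Csf2, which encodes GM-CSF, was at 137 against 92.5 CPM (0.56, not called).

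The list of sensors and NF-kB signalling genes had 6 lower and 1 higher of 19 in tumour myeloid cells (3.19% and 8.62% over all genes), with a median of -0.30. The NF-kB inhibitors Nfkbia (1065 against 2311 CPM, -1.12) and Tnfaip3 (103 against 224 CPM, -1.12), themselves NF-kB targets, were lowest, and Bcl3 was higher (0.93). In TDLN myeloid cells 4 of 19 were lower and 0 higher (median -0.29), with Bcl3 at -1.13 and Nfkbia at -1.01. In carcinoma-like cells the list had 0 lower and 1 higher of 19 in the tumour (median 0.08) and 3 lower and 0 higher of 18 in TDLN (median -0.05), with Rela, an NF-kB subunit, at -0.80. Bcl3 was not a class signal, since it was lower in 7 of 7 measured TDLN classes (-2.21 to -0.89).

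The next list holds inflammatory targets known to be induced together with the chemokines. Of 14 measured, 6 were lower and 1 higher in tumour myeloid cells (median -0.54). Il6 was at -1.40 and Ptgs2, the inducible prostaglandin synthase, at 192 against 464 CPM (-1.27). Neither was particular to this class, since Ptgs2 was called lower in 5 of 7 measured tumour classes (-1.27 to -0.15) and Il6 in 2 of 3. Cebpb, a transcription factor of myeloid and acute-phase genes, was higher at 1.16, as it was in 7 of 7 tumour classes (0.91 to 1.65). In TDLN, Cebpb was called lower in 5 of 7 measured classes (-1.34 to -0.42). In TDLN myeloid cells 7 of 13 were lower and 0 higher (median -0.59), with Ptgs2 at -2.32 and Saa3, an acute-phase protein gene, at 1 against 125 UMIs. In tumour carcinoma-like cells 5 of 16 were lower and 2 higher (median -0.37), with Lcn2 (-1.61) and Saa3 (-1.55) lowest and Cebpb (1.20) and Ccl20 (0.82) highest. Of these, Saa3 (1.11 against 3.25 CPM) and Ccl20 (0.768 against 0.434 CPM) were scarce. In TDLN carcinoma-like cells 4 of 12 were lower and 1 higher (median -0.00), with Ccl2, which draws monocytes, at 362 against 769 CPM (-1.09). Ppbp, another CXCR2 ligand gene, was at 11.5 against 32.2 CPM in tumour myeloid cells (-1.48), the 1 measured member of its list of 4. A list of 12 immediate-early and heat-shock genes that respond to tissue handling was read beside these. The list shares Zfp36 with the NF-kB list and Ier3 with the inflammatory targets, so the lists are not separate. It had 3 lower and 0 higher in tumour myeloid cells (median -0.41) and 4 lower and 0 higher in TDLN myeloid cells (median -0.42), against medians of 0.00 and -0.15 in carcinoma-like cells. Its part in the chemokine ratios was not tested.

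Tumour Cxcr2 stood out in neutrophil-like cells, where 30 of 86 NanoCa cells (34.9%, 24.9 to 45.9) and 40 of 122 mock cells (32.8%, 24.6 to 41.9) held a Cxcr2 UMI, although their medians were 1326 and 1596.5 UMIs per cell. Deeper lymphocytes of the tumour held no Cxcr2 UMI, with 0 of 719 and 0 of 888 T cells, which allows shares of up to 0.417% and 0.338%. B cells likewise had 0 of 462 and 0 of 269, which allows 0.649% and 1.12%. These limits concern cells with a UMI, not cells that express the gene. In TDLN, T cells held 3 and 3 Cxcr2 UMIs of the 14 and 20 in kept cells. Carcinoma-like cells had 5 and 9 UMIs in the tumour (0.0787% and 0.169% of cells) and 1 and 3 in TDLN. Tumour myeloid cells had 4 and 0. The 4 Cxcr2 UMIs of TDLN NanoCa myeloid cells were in 1 cell. The TDLN neutrophil-like class had 6 and 7 cells, with 6 and 14 Cxcr2 UMIs, 42.9% and 70.0% of the total. Cxcr1, the sister receptor, had 3, 6, 0 and 3 UMIs in the 4 whole libraries.

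**Figure D5:**
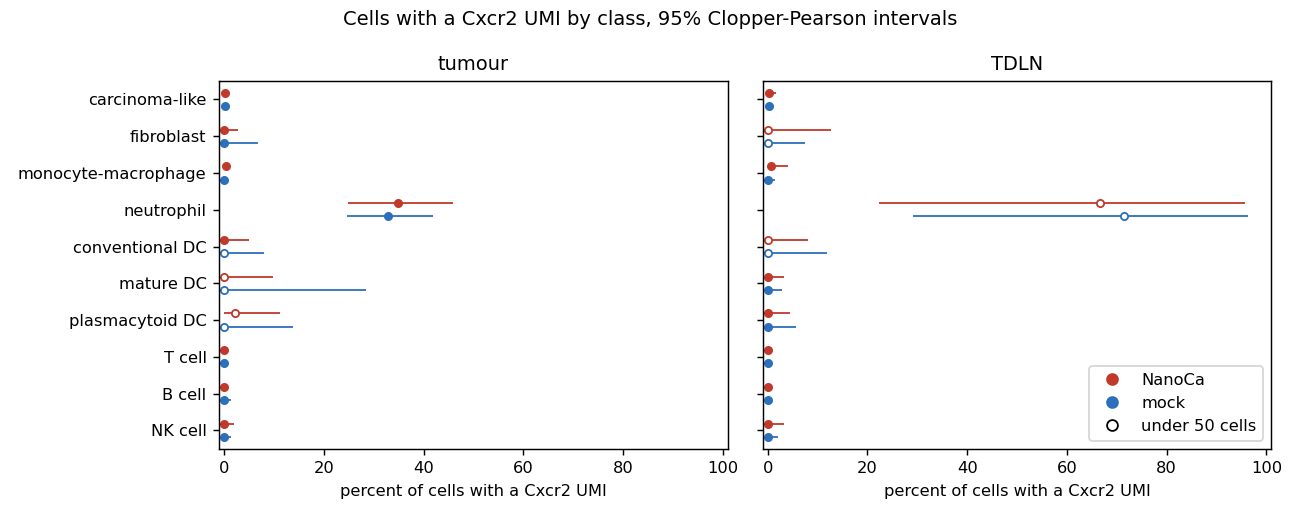
Percent of cells with a Cxcr2 UMI (x axis) by class, tumour and TDLN, for the NanoCa and mock libraries with 95% Clopper-Pearson intervals, with open points for classes under 50 cells. Tumour neutrophil-like cells stand at 34.9% and 32.8%.

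The level of Cxcr2 in tumour neutrophil-like cells was 405.5 CPM (299 to 538) with NanoCa and 298 (228 to 383) with mock, a log2 ratio of 0.44 (-0.13 to 1.01). It was not called, and the ratio passed 1.5-fold after free RNA was subtracted and in thinned cells (0.36 to 0.97 over all alternatives). The thinned shares were 30.7% (20.5 to 42.4, 75 cells) and 21.6% (14.5 to 30.1, 116 cells), with overlapping intervals. Free RNA was estimated at 63.0% (NanoCa) and 59.2% (mock) of this class's UMIs. That estimate may be too high, since Cxcl1 measured in the class (566 and 694 CPM) lay below the 841 and 895 CPM it gives. The same limit holds for the ratio after free RNA was subtracted. Neutrophil-like cells made up 0.843% (NanoCa) and 1.42% (mock) of the cells kept from the tumour (log2 -0.75, -1.17 to -0.34), and 3.29% against 5.18% of cells of named immune classes (log2 -0.65, -1.07 to -0.24). The tumour myeloid share was 9.70% against 8.30%. Of the 21 genes of the CXCR2 signalling and motility list, measured in tumour myeloid cells because neutrophil-like cells had few UMIs, 0 were lower and 1 higher, near the 8.62% of all genes called higher (median 0.06). That gene was Gnai2, a G-protein subunit gene, at 971 against 394 CPM (1.30), and it was higher in 7 of 7 tumour classes (0.63 to 1.63). In TDLN carcinoma-like cells the list had 5 higher and 0 lower of 17 (median 0.41), led by the blood-cell genes Was (1.42) and Rac2 (1.41). The list of neutrophil retention and adhesion genes had 2 lower and 0 higher of 9 in tumour myeloid cells (median -0.20). In TDLN carcinoma-like cells it had 4 higher and 1 lower of 5, with the leukocyte integrin gene Itgb2 at 2.21. The neutrophil markers had 5 lower and 0 higher of 11 in tumour myeloid cells (median -0.30), with S100a8 at 23.9 against 51.5 CPM (-1.11). In TDLN myeloid cells they had 2 higher and 1 lower of 7, beside 8.29% and 9.03% over all genes (median -0.12). The higher ones were Mmp9, a matrix protease gene of granules and osteoclasts, at 391.5 against 6.21 CPM (5.98) and Il1r2, a decoy receptor gene (0.82).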

How the data were processed

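The authors deposited UMI count matrices (genes by barcodes, not normalized), made with Cell Ranger 7.1.0 per the file headers, from 10x 3' v2 libraries of CD45-stained, sorted cells per the labels' protocols. No source used here names a genome build or annotation. Kept barcodes had 200 or more genes and no more than 10% of mitochondrial UMIs (11215 and 9281 in the tumour, 11013 and 10268 in TDLN, NanoCa first). The highest Scrublet scores (scanpy 1.11.5) were removed as doublets at 0.8% per 1000 barcodes. Both libraries of each tissue entered 1 clustering with no batch integration, from UMIs scaled to 10000 per cell, 2000 variable genes, 30 components, 15 neighbours and Leiden resolution 1 (leidenalg 0.10.2). The 5 genes and their related lists were left out of the variable genes, except the neutrophil markers. Those markers could enter the clustering, and they also named the neutrophil-like class. Clusters with markers of a second class were clustered again, which gave 58 tumour and 49 TDLN clusters. A name needed at least 3 markers raised 1.5-fold. Carcinoma-like clusters instead needed Ptprc and Xist under 20% of the immune median and at least 3 carcinoma markers detected. The naming thresholds and the second clustering were set after first clusters had been seen.

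UMIs were summed per library and class (at least 50 cells in each) and given as CPM with exact Poisson intervals, ratios with exact conditional binomial intervals, and shares of cells with Clopper-Pearson intervals, all 95% and covering counting error alone. No test was run, since each group is 1 library and cells do not replicate it. A count of 0 allows up to 3 counts. The ratio script was tested on simulated data. Free RNA was estimated per library from Krt8, Krt18 and Rhox5 in immune classes. TMM and median-of-ratios factors came from edgeR 4.0.16. The members and all gene lists were chosen with earlier results of these data known, and the 12 handling genes after the members' ratios. Named genes were the members, the 5 genes most correlated with each, and the 2 highest and 2 lowest of each related list in monocyte-macrophage-like and carcinoma-like cells, of which some are printed.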

Additional observations from a re-analysis of the deposited data

Results flagged for a closer look

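Cxcl1 in carcinoma-like cells had NanoCa over mock log2 ratios on opposite sides of 0 in the 2 tissues. The ratio was -0.15 (-0.16 to -0.14) in the tumour, from 6355 and 5314 cells, and 0.52 (0.49 to 0.54) in TDLN, from 329 and 995 cells. Neither reached 1.5-fold, and with 1 library per group the difference between them was not tested.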

How the results depend on the processing

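Over 14 alternatives, 34 ratios were recomputed, and 370 values kept their call while 22 did not. Of 15 called ratios, 10 kept their call under every alternative that gave a value. Tumour fibroblast-like ratios had values under only 5 of the 14 alternatives. The 1 called ratio that changed sign was tumour myeloid Cxcl5, at 0.065 with list genes kept among the clustering genes and 0.36 in thinned cells. Uncalled ratios changed sign too, among them tumour NK-cell Cxcl2 (from -0.43 to 2.51 with free RNA subtracted) and tumour fibroblast-like Cxcl3 (from -0.44 to 1.52 with the same cluster makeup). Tumour myeloid Cxcl1 stayed lower, at -1.60 with TMM factors, -1.61 with median-of-ratios factors, -1.66 without doublet removal, -1.58 with list genes kept, -1.88 with free RNA subtracted, -1.45 thinned, -1.42 with the same cluster makeup and -1.35 without the clusters raised in neutrophil-list genes. Tumour myeloid Cxcl2 was at -1.47, -1.48, -1.44 (list genes kept), -1.26 (thinned), -1.24 (same makeup) and -1.47 (without those clusters). TDLN myeloid Cxcl2 was at -1.09 with at least 500 genes, -1.09 with at most 5% mitochondrial UMIs, -1.10 and -1.12 at resolutions 0.5 and 2, -0.97 with list genes kept, -1.36 thinned and -1.36 without the richest cell. Carcinoma-like Cxcl1 was at -0.21 (thinned) and -0.10 (same makeup) in the tumour, and at 0.46 with either scaling factor, 0.48 without doublet removal and 0.45 thinned in TDLN.

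Members called lower in tumour carcinoma-like cells fell from 2 to 1 without doublet removal and with the same makeup. Members called higher in neutrophil-like cells went from 1 to 0 with TMM factors, median-of-ratios factors, no doublet removal and without the richest cell, and to 2 thinned. In fibroblast-like cells 2 were lower when thinned and 1 higher with the same makeup. The mock Cxcr2 share was 21.6% thinned. With at least 10 UMIs in place of 50, genes called higher and lower were 1569 and 789 (tumour myeloid, from 837 and 310), 1500 and 1516 (tumour carcinoma-like, from 870 and 613), 1553 and 1378 (TDLN myeloid, from 585 and 637) and 2040 and 1500 (TDLN carcinoma-like, from 960 and 879). The causes of these moves were not tested. Without the second clustering, chosen after seeing the data as was the choice of neutrophil-raised clusters, TDLN myeloid cells gave no ratio. No paired analysis was possible because each group is 1 library. Neutrophil-like cells held few UMIs, which limits Cxcr2.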
